A study of Oreochromis niloticus with 12 samples.

Results

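Transcripts of nuclear receptor genes were compared between dominant and subordinate males of Nile tilapia (Oreochromis niloticus), a cichlid fish with male hierarchies. The genes were taken by name from the brain table, as every entry that carries the symbol of one of the main nuclear receptor families and that averaged at least 10 normalised reads over 6 brains. The progesterone receptor gene pgr was left out. This gave 46 of the 27115 genes in the brain table, or of 21743 with the same minimum, and 1 of the 714 genes in the pituitary table, hnf4a. Of the 46 genes 41 encode receptors, and 5 encode proteins that bind them and were caught by their names (ppargc1a, ppargc1b, thrap3, thrap3a and nr2c2ap). The files gave 15 of them under a locus number, which a RefSeq gene table paired with its symbol.

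The fish were mature males of the Lake Manzala strain. They lived with a rival male and several females, 2 males to a tank, and were sampled on day 14 once their rank was stable; dominant males were reproducing and subordinate males were not. The groups were dominant brains, dominant pituitaries, subordinate brains and subordinate pituitaries, with 3 libraries each, and the labels name no drug or transgene. Nothing in the labels says whether the numbered fish came from separate tanks, so p-values measure the spread between these samples.

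Nuclear receptors are transcription factors, many of which are switched by a small fat-soluble molecule such as a steroid, thyroid hormone, retinoic acid or a fatty acid. They bind DNA alone, as pairs of the same receptor or as pairs with a retinoid X receptor, and exchange corepressors for coactivators when the ligand binds. In the vertebrate brain they carry gonadal, adrenal and thyroid signals to genes for reproduction, stress and metabolism, and the Rev-erb and ROR receptors form part of the daily clock. Teleost fishes hold additional copies of many of these genes from a whole genome duplication. A final a or b can mark such a copy, as in rxrba and rxrbb. In other symbols it marks the receptor subtype, as in rora and rorb.

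Brain libraries held 23733115 to 26867631 recovered reads. All 13 neuronal marker genes were detected in every brain, with summed levels of 217709 to 231635 normalised reads in dominant and 220584 to 231132 in subordinate brains. The sums of 3 microglial and of 3 erythrocyte genes overlapped between the groups, and other markers moved with status or with a single brain. The mean log2 level of 11 posterior hox genes, which are active in the hindbrain and spinal cord, was 6.63, 7.14 and 6.32 in dominant brains, against 5.39, 1.69 and 2.67 in subordinate brains. This level did not overlap between the groups, so fits below that use it as a covariate cannot tell it apart from status. Their differences are given as estimates only. The sum of 8 pituitary hormone genes was 10362 to 15002 in dominant brains, against 13856 to 29532 in subordinate brains, with the highest value in subordinate brain 3. Of these genes cga, lhb and fshb were lower in every dominant brain than in any subordinate brain. For lhb the groups nearly met, at 283 in dominant brain 3 and 284 in subordinate brain 1. The other hormone genes overlapped. The sum of 12 glial genes was 223487 to 251852 in dominant and 177264 to 221973 in subordinate brains, without overlap. Its members were mixed. The genes s100b, gfap, fabp7a and plp1a were higher in every dominant brain than in any subordinate brain, and the other glial genes overlapped. Against this, mbpa was highest in subordinate brain 1 and glula in subordinate brain 3. The part of these differences in any result below was not tested, and in whole tissue fewer cells of a type and less RNA per cell cannot be told apart.

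In the brain no nuclear receptor gene differed between dominant and subordinate males by the test across all genes. At an adjusted p under 0.05 (limma, Benjamini-Hochberg) 0 of 46 were called, against 6 of all 21743 genes tested (0.0276%). On the reads recovered from the same values edgeR called 0 of 46, with 0.0276% of all genes called, and DESeq2 called 0 of 46, with 0.386% of all genes called. The adjusted p of the 46 genes ran from 0.934 to 0.997 in limma.

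Weaker criteria picked out few receptor genes, at shares below or close to those of all genes for either direction together. At an unadjusted limma p under 0.05 there was 1 of 46 genes (2.17%), nr0b1b, against 5.17% of all genes tested. None of the 46 genes (0 of 46) had an unadjusted p under 0.05 in the authors' deposited table, against 4.58% of all genes tested, and the lowest were rorb at 0.0904, rara at 0.0961 and nr0b1b at 0.104. The 3 dominant brains did not overlap with the 3 subordinate brains for 5 of 46 genes (10.9%), against 10.8% of all genes. Of these hnf4a was higher in dominant brains (2.17% of the 46, against 5.46% of all genes), and esrra, rxrba, nr0b1b and thrap3 were lower (8.70% of the 46, against 5.33% of all genes).

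Differences were small in both directions. On the log2(normalised reads + 1) scale, dominant minus subordinate, 21 of the 46 genes had a positive and 25 a negative difference, with a median of -0.027, beside a median of -0.0043 over all genes tested. Of all 21743 genes 10615 were positive and 11128 negative. The median size of the difference without its sign was 0.108 for the 46 genes and 0.107 for all genes. For 25 of 46 genes the 95% interval of the difference lay within 0.5 log2 units of 0, and for 37 of 46 within 1 log2 unit. A p above the threshold does not show that the groups were alike, and for the remaining genes a change of 2-fold was within reach of the error.

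**Figure D1:**
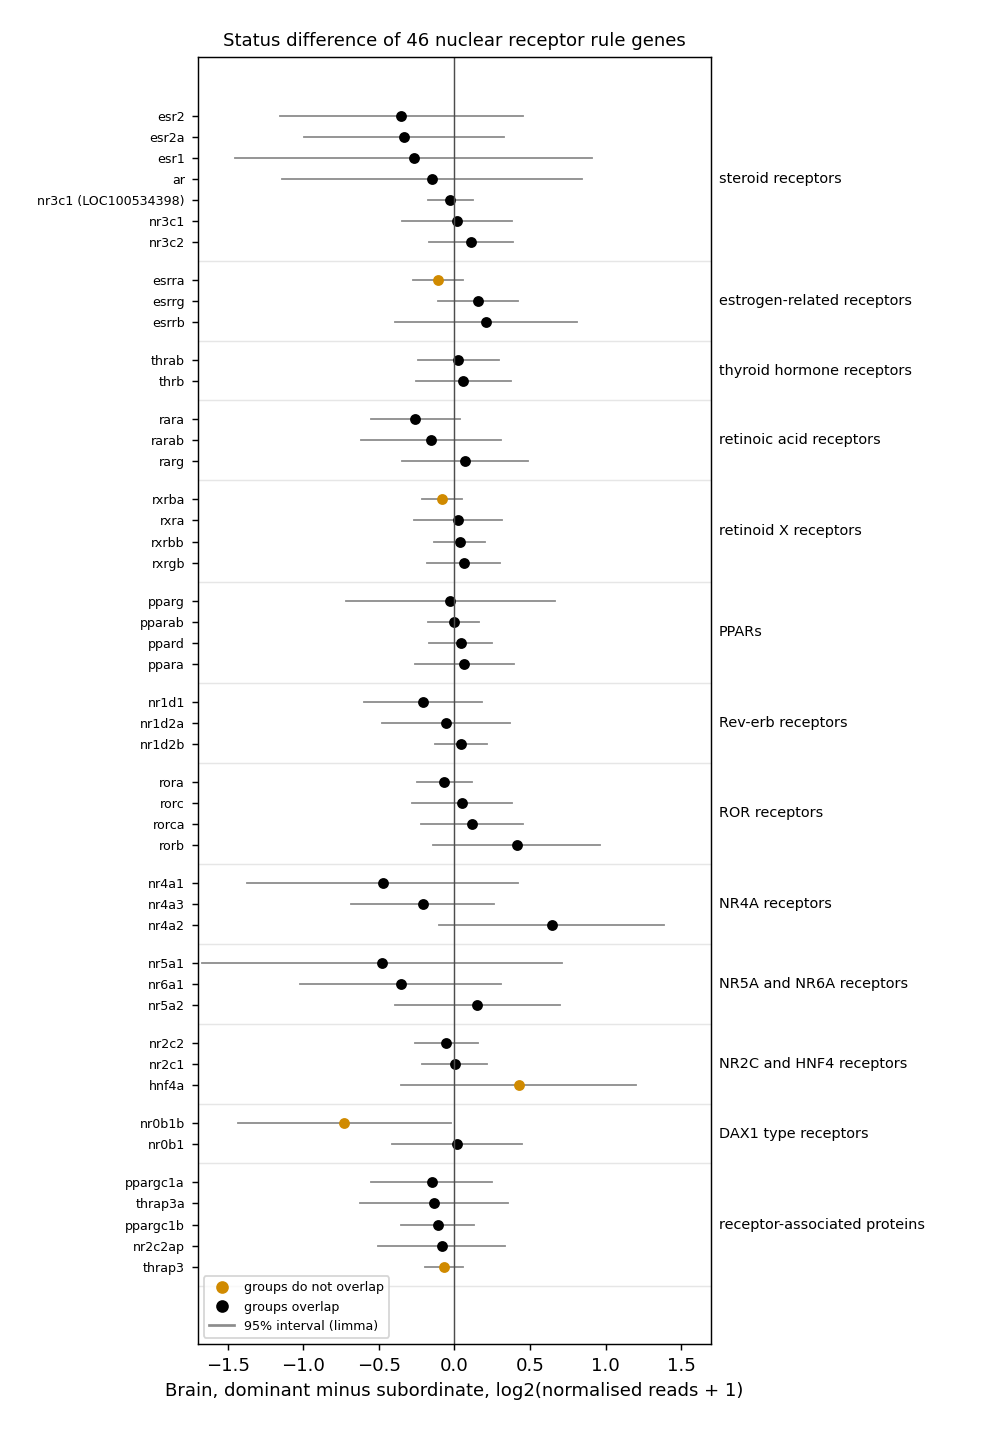
Difference between dominant and subordinate brains for each of the 46 genes, on the log2(normalised reads + 1) scale (horizontal axis), grouped by receptor class (right). Points are limma estimates with their 95% intervals, and orange points mark the 5 genes whose groups do not overlap; only the interval of nr0b1b leaves out 0, from -1.43 to -0.02.

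Among the steroid receptors, which respond to gonadal and adrenal steroids, 7 genes fell under the name rule and none was called. The estrogen receptor gene esr1 had 226, 586 and 224 normalised reads in dominant brains, against 240, 317 and 686 in subordinate brains. A single brain of each status, dominant 2 and subordinate 3, held far more than its companions, and the groups overlapped. The difference was -0.27 ± 0.50 (SE, limma, n = 3 each, adjusted p = 0.958), with an interval from -1.45 to 0.91. Its coefficient of variation was 60.4% among dominant and 57.6% among subordinate brains, where read counting alone would give 5.10%. No other of the 46 genes had a larger residual SD within the status groups (0.79 log2 units). The pituitary hormone sum was 10362, 11980 and 15002 in dominant brains, against 13856, 14469 and 29532 in subordinate brains. It was highest in subordinate brain 3, but dominant brain 2 lay below dominant brain 3 and below every subordinate brain. The part of this sum in the esr1 values was not tested.

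The estrogen receptor of the other type is present as a pair of genes. The gene esr2 had 13.5, 16.0 and 12.6 normalised reads in dominant brains, against 12.7, 22.9 and 20.1 in subordinate brains. The gene esr2a (LOC100534515) had 35.3, 31.0 and 54.4 in dominant brains, against 41.9, 61.3 and 47.3 in subordinate brains. Both overlapped between the groups, at differences of -0.35 ± 0.34 and -0.33 ± 0.28 (SE). The androgen receptor gene ar, which carries the testosterone and 11-ketotestosterone signal in fish, had 6.22, 11.3 and 14.7 in dominant brains, against 12.7, 10.4 and 11.1 in subordinate brains. It rests on 6 to 14 recovered reads per library, and its interval from -1.14 to 0.84 leaves a change of 1.5-fold in either direction undetectable at this depth. A second androgen receptor gene outside the name rule, ara, had a higher mean of 66.2 normalised reads. Its interval was narrower, from -0.53 to 0.52 log2 units, and its group means are given below.

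Receptors for corticosteroids, the stress hormones of fish, were measured far more precisely. The glucocorticoid receptor gene nr3c1 had 331, 422 and 412 normalised reads in dominant brains, against 316, 406 and 433 in subordinate brains. A second locus that the gene table also names nr3c1, LOC100534398, had 1300, 1200 and 1299 in dominant brains, against 1290, 1256 and 1322 in subordinate brains. The mineralocorticoid receptor gene nr3c2 had 1976, 1644 and 1534 in dominant brains, against 1584, 1436 and 1751 in subordinate brains. All of these overlapped, and the differences were 0.02 ± 0.15 for nr3c1, -0.03 ± 0.06 for LOC100534398 and 0.11 ± 0.12 for nr3c2 (SE). The interval for LOC100534398 ran from -0.17 to 0.12 log2 units, so a larger change of that locus lies outside it.

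The estrogen-related receptors bind sites like those of the estrogen receptor without a known natural hormone and drive genes of energy metabolism. The gene esrra had 705, 742 and 728 normalised reads in dominant brains, against 759, 757 and 831 in subordinate brains. Every dominant brain lay below every subordinate brain, by -0.11 ± 0.07 log2 units (SE, limma, n = 3 each, adjusted p = 0.934). The other members overlapped, with a mean of 106 ± 19.9 in dominant and 93.1 ± 29.2 in subordinate brains for esrrb (LOC100708924), and 513 ± 39.1 and 462 ± 53.1 for esrrg (SD, n = 3).

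**Figure D2:**
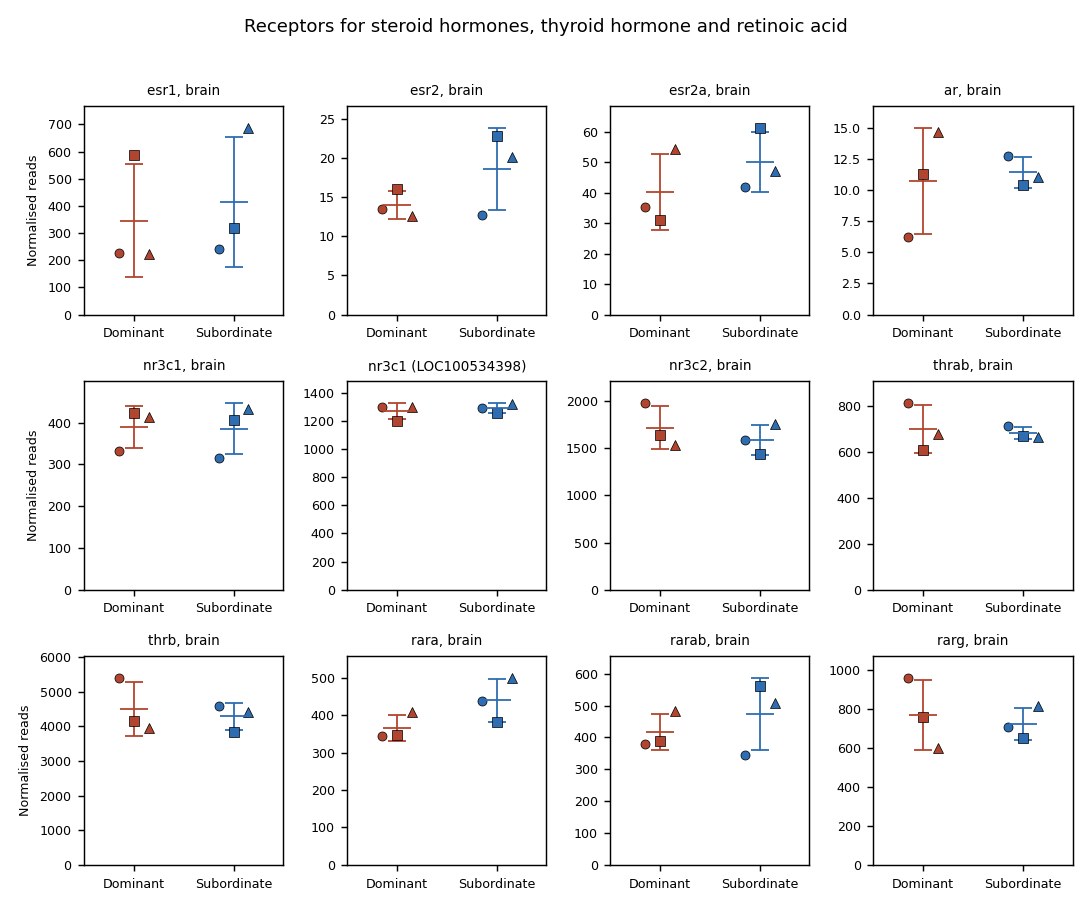
Normalised reads in the brain (vertical axis, from 0) of 12 receptor genes for steroids, thyroid hormone and retinoic acid, with dominant fish on the left and subordinate fish on the right. Circles, squares and triangles are fish 1, 2 and 3, and bars show the mean and SD; the groups overlap in all 12 panels, and esr1 ranges from 224 to 686.

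Thyroid hormone receptors act on target genes with or without thyroid hormone bound. The gene thrab (LOC100702192), an alpha type receptor, had 812, 608 and 677 normalised reads in dominant brains, against 714, 670 and 664 in subordinate brains. The beta type gene thrb had 5379, 4145 and 3948 in dominant brains, against 4589, 3837 and 4424 in subordinate brains. Dominant brain 1 held the highest level of both genes, and the groups overlapped, at differences of 0.02 ± 0.11 and 0.06 ± 0.13 (SE).

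Of 6 genes of thyroid hormone supply to these receptors 0 were called, and 2 of 6, in opposite directions, had an unadjusted p under 0.05 in limma, against 5.17% of all genes tested. The deiodinase gene dio1 had 356, 342 and 368 normalised reads in dominant brains, against 293, 233 and 327 in subordinate brains. The gene dio3, whose enzyme inactivates thyroid hormone, had 327, 309 and 355 in dominant brains, against 368, 429 and 374 in subordinate brains. Neither gene overlapped between the groups, as held for 10.8% of all genes tested in either direction. The differences were 0.33 ± 0.14 for dio1 and -0.24 ± 0.10 for dio3 (SE, adjusted p = 0.934 for both, limma, n = 3 each). The gene dio2, whose enzyme makes the active hormone, overlapped at 0.12 ± 0.24 (SE).

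Retinoic acid receptors bind retinoic acid, a product of vitamin A. The gene rara had 344, 346 and 407 normalised reads in dominant brains, against 437, 382 and 498 in subordinate brains. Dominant brain 3 lay above subordinate brain 2, and the difference was -0.26 ± 0.12 (SE, limma, n = 3 each, adjusted p = 0.934). Its duplicate rarab (LOC100692530) had 381, 389 and 484 in dominant brains, against 346, 562 and 509 in subordinate brains. The gene rarg had 958, 760 and 599 in dominant brains, against 709, 651 and 814 in subordinate brains. Both of these overlapped, at -0.16 ± 0.19 and 0.07 ± 0.18 (SE).

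Retinoid X receptors are the shared partners of the thyroid hormone, retinoic acid and PPAR receptors. The gene rxrba (LOC100534499) had 2861, 2915 and 2970 normalised reads in dominant brains, against 3183, 2981 and 3112 in subordinate brains. The groups did not overlap, though the highest dominant brain at 2970 came close to the lowest subordinate brain at 2981, and the difference was -0.08 ± 0.06 (SE, adjusted p = 0.934). The other members overlapped. Their differences were 0.02 ± 0.12 for rxra, 0.03 ± 0.07 for rxrbb (LOC100711502) and 0.06 ± 0.10 for rxrgb (LOC100706800) on the log2 scale (SE).

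Of 14 genes that make, carry or break down retinoids, 11 had a positive and 3 a negative difference, with a median of 0.24, and 0 of 14 were called. Over all 21743 genes tested 10615 were positive. The groups did not overlap for 2 of 14 with dominant brains higher and 1 of 14 with them lower, against 5.46% and 5.33% of all genes. At an unadjusted p under 0.05 there were 2 of 14, against 5.17% of all genes tested. The gene aldh1a2, whose enzyme makes retinoic acid, had 169, 180 and 158 normalised reads in dominant brains, against 132, 94.5 and 88.5 in subordinate brains. All dominant brains were above all subordinate brains, by 0.70 ± 0.18 (SE, limma, n = 3 each, unadjusted p = 0.00568, adjusted p = 0.855). The gene bco2a (LOC100698224), whose enzyme cleaves carotenoids, had 604, 721 and 696 in dominant brains, against 946, 827 and 952 in subordinate brains, a difference of -0.43 ± 0.10 (SE, adjusted p = 0.828). These groups did not overlap either. The gene rdh10, whose enzyme oxidises retinol, had 361, 390 and 370 in dominant brains, against 352, 339 and 263 in subordinate brains, without overlap, at 0.25 ± 0.13 (SE, adjusted p = 0.934). The posterior hox level, given above, moved with status in the same brains. With that level as a covariate the median of the 14 genes was -0.13, with 6 positive and 8 negative, so the direction of this list turned in that fit. The hox level did not overlap between the groups, so the fit cannot tell it apart from status.

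The PPARs sense fatty acids and control lipid use. The 4 genes overlapped between the groups. Means were 1002 ± 115 in dominant and 962 ± 147 in subordinate brains for ppara, 854 ± 39.5 and 857 ± 44.8 for pparab (LOC100709869), 234 ± 5.94 and 227 ± 5.96 for ppard, and 59.8 ± 10.5 and 62.9 ± 22.8 for pparg (SD, n = 3). The interval of ppard ran from -0.17 to 0.25 log2 units and that of pparg from -0.72 to 0.66. The gene pparg, known in mammals for fat cell formation, was also the most variable of the 4, with 88.3 normalised reads in subordinate brain 1 and 44.3 in subordinate brain 3.

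Rev-erb receptors repress and ROR receptors activate clock genes through the same DNA element. The Rev-erb gene nr1d1 had 180, 208 and 233 normalised reads in dominant brains, against 248, 279 and 196 in subordinate brains, and its difference was -0.21 ± 0.16 (SE). Its relatives nr1d2a (LOC100702791) and nr1d2b (LOC100702127) were at -0.05 ± 0.18 and 0.04 ± 0.07 (SE). The gene rorb, known in mammals from the retina and the sensory cortex, had 552, 327 and 452 in dominant brains, against 337, 256 and 402 in subordinate brains. Dominant brain 2 lay below both subordinate brains 1 and 3, and the difference was 0.41 ± 0.23 (SE, limma, n = 3 each, adjusted p = 0.934). The differences of rora, rorc (LOC100700925) and rorca (LOC100704898) were -0.07 ± 0.08, 0.05 ± 0.14 and 0.12 ± 0.14 (SE).

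Of 23 other clock genes, which make up the loop that Rev-erb and ROR receptors feed into, 10 had a positive and 13 a negative difference, with a median of -0.02. In limma 0 of 23 passed at an adjusted p under 0.05, against 0.0276% of all genes tested. At an unadjusted p under 0.05 there were also 0 of 23, against 5.17% of all genes tested. The cryptochrome gene cry1a (LOC100694525), a repressor of the loop, had 3376, 3500 and 3226 normalised reads in dominant brains, against 3077, 3035 and 3141 in subordinate brains. The gene csnk1da (LOC100700008), for a kinase that acts on the period proteins, had 2508, 2524 and 2603 in dominant brains, against 2646, 2858 and 3096 in subordinate brains. Neither overlapped between the groups, as held for 10.8% of all genes tested in either direction. They went opposite ways, at 0.13 ± 0.06 for cry1a and -0.17 ± 0.07 for csnk1da (SE, adjusted p = 0.934 for both, limma, n = 3 each). The period gene per2 (LOC100689707) had 613, 937 and 723 in dominant brains, against 777, 1049 and 835 in subordinate brains, at -0.24 ± 0.18 (SE).

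NR4A receptors need no hormone and are induced within minutes of nerve cell activity. They gave the widest range of differences, in opposite directions. The gene nr4a2, which dopamine neurons need, had 143, 97.8 and 107 normalised reads in dominant brains, against 114, 67.5 and 50.3 in subordinate brains. Subordinate brain 1 lay within the dominant range, and the difference of 0.64 ± 0.31 was the largest positive one of the 46 genes (SE, limma, n = 3 each, unadjusted p = 0.0812, adjusted p = 0.934). With the posterior hox level as a covariate the nr4a2 difference was -0.14. The gene nr4a1 (LOC100709939) had 19.7, 37.6 and 39.8 in dominant brains, against 36.4, 65.5 and 34.2 in subordinate brains. The gene nr4a3 had 343, 429 and 512 in dominant brains, against 505, 597 and 387 in subordinate brains. Both overlapped, at -0.48 ± 0.38 and -0.21 ± 0.20 (SE). Dominant brain 1 held the lowest level of nr4a1 and nr4a3 but the highest of nr4a2, and subordinate brain 2 the highest of nr4a1 and nr4a3.

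**Figure D3:**
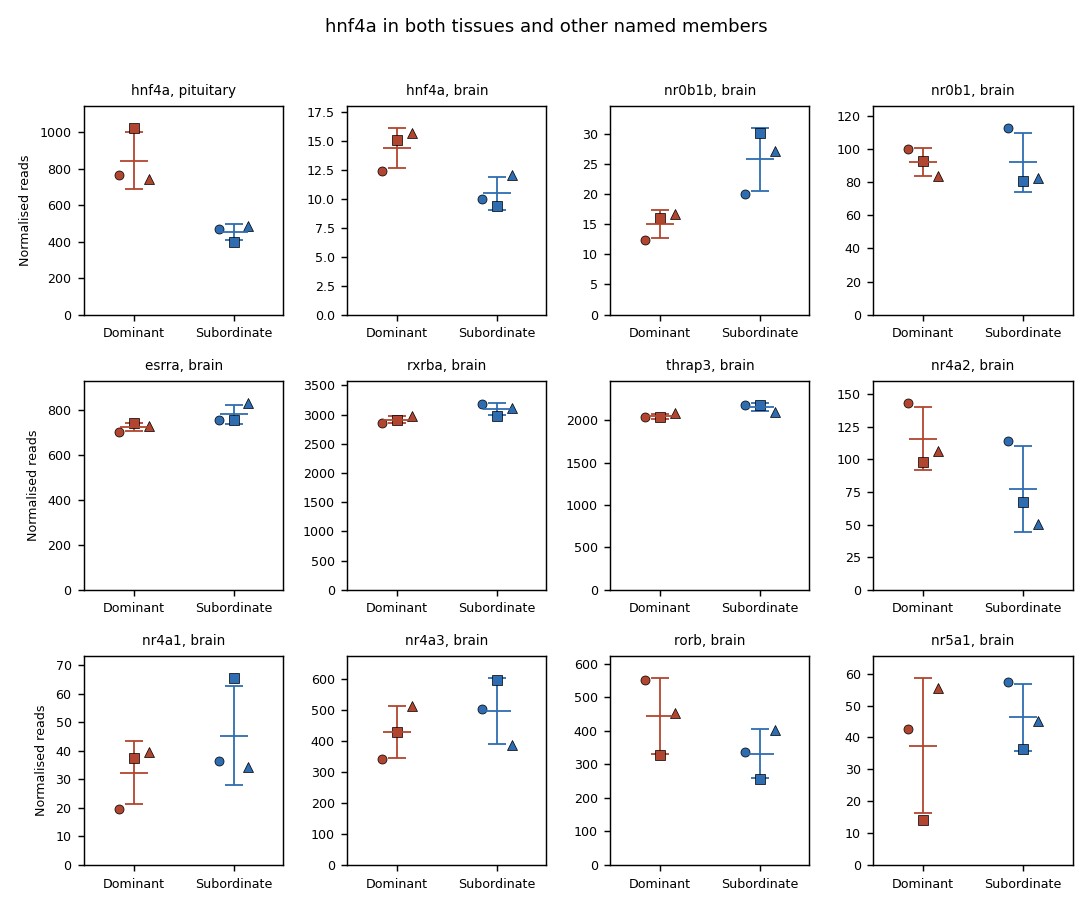
Normalised reads (vertical axis, from 0) of hnf4a in the pituitary and the brain and of 10 further genes in the brain, with dominant fish on the left and subordinate fish on the right. Circles, squares and triangles are fish 1, 2 and 3, and bars show the mean and SD; hnf4a in the pituitary lies between 743 and 1022 in dominant and between 401 and 485 in subordinate fish. The tissues were normalised separately, so levels are not comparable between the first and the second panel.

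Both genes of the DAX1 type encode repressors that lack a DNA-binding domain and hold back steroid hormone genes in mammals. The gene nr0b1b had 12.4, 16.0 and 16.7 normalised reads in dominant brains, against 20.0, 30.1 and 27.2 in subordinate brains. Every dominant brain lay below every subordinate brain, by -0.73 ± 0.30 log2 units (SE, limma, n = 3 each, unadjusted p = 0.0446, adjusted p = 0.934). With the posterior hox level as a covariate the nr0b1b difference was -0.22. Without dominant brain 1, or without subordinate brain 3, none of the 46 genes had an unadjusted p under 0.05. The gene nr0b1b rests on 12 to 17 recovered reads in dominant and 22 to 29 in subordinate libraries. The duplicate nr0b1 had 101, 93.1 and 83.7 in dominant brains, against 113, 81.0 and 82.5 in subordinate brains, at 0.02 ± 0.18 (SE). The log2 ratio of nr0b1b to nr0b1 was taken with 1 normalised read added to each, so library scaling does not fully cancel at such low levels. This ratio was -2.55 ± 0.34 in dominant and -1.80 ± 0.56 in subordinate brains (SD, n = 3, exact permutation test, two-sided p = 0.2).

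NR5A receptors switch on steroid hormone genes, and nr5a1 (SF-1) is needed for the gonads, the adrenal and the pituitary gonadotropes of mammals. The gene nr5a1 had 42.5, 14.1 and 55.5 normalised reads in dominant brains, against 57.4, 36.4 and 45.3 in subordinate brains. Dominant brain 2 alone held the low value, and the range over 6 brains was 4.07-fold, the widest of the 46 genes. The difference was -0.48 ± 0.50 (SE). The genes nr5a2 and nr6a1, the germ cell nuclear factor, overlapped at 0.15 ± 0.23 and -0.36 ± 0.28 (SE).

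The NR2C receptors nr2c1 and nr2c2, known as testicular receptors and present in most mammalian tissues, averaged 459 ± 40.9 and 681 ± 65.5 normalised reads in dominant brains, against 458 ± 17.8 and 705 ± 24.0 in subordinate brains (SD, n = 3). Neither was called, at 0.00 ± 0.09 and -0.05 ± 0.09 (SE).

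The gene hnf4a encodes a receptor of liver, gut and kidney that controls metabolic genes. It was the only nuclear receptor gene of the name rule in the pituitary table, which holds genes with an authors' deposited p-value under 0.05, so that its presence there is a selection by the same contrast. In the pituitary it had 763, 1022 and 743 normalised reads in dominant fish, against 469, 401 and 485 in subordinate fish. The groups did not overlap, as in 38.5% of the 714 genes with the dominant fish higher, and the difference was 0.89 ± 0.18 log2 units, or 1.85-fold (SE, limma, n = 3 each, adjusted p = 0.0855). It was not called by limma, which called 0.84% of the table, nor by edgeR, which called 0.84% (adjusted p = 0.0817). It was called by DESeq2, which called 25.8% (adjusted p = 0.00123). Because the table was selected by this contrast, such calls and adjusted p-values only describe that table and are no independent evidence. Without subordinate fish 1 the limma adjusted p was 0.0369, when 255 of the 714 genes were called. Over the removal of each fish in turn the difference stayed between 0.74 and 0.97. In the authors' deposited table the log2 fold change was 0.90, with an unadjusted p of 5.76e-06. Some marker genes in the pituitary table, selected by the same contrast, also moved with status. The sum of 2 erythrocyte genes was 281 to 647 in dominant and 115 to 277 in subordinate fish, though each gene overlapped. The hormone genes fshb, lhb and cga were higher in every dominant fish, while gh1 and the neuronal gene slc17a6 overlapped. The part of these differences in the hnf4a values was not tested. The other genes of the name rule were not in the pituitary table and were not analysed there. The receptor gene pgr, which the rule left out, is given below.

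In the brain hnf4a had 12.4, 15.1 and 15.7 normalised reads in dominant fish, against 10.02, 9.35 and 12.1 in subordinate fish. Dominant brains were above subordinate brains, with little distance between 12.4 and 12.1, at 0.42 ± 0.33 (SE, limma, n = 3 each, adjusted p = 0.934). It rests on 9 to 16 recovered reads per library, and read counting alone would give a coefficient of variation of 28.3%. The difference between the tissues was not tested.

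Several ligand pathway and target genes of the receptors, and the receptor gene pgr, stood in the pituitary table beside hnf4a. All were selected by the same contrast, and none of those named here was called by limma, which called 0.84% of the table. The retinoid pathway gene stra6 had 102, 147 and 113 normalised reads in dominant fish, against 81.1, 76.1 and 65.3 in subordinate fish. The groups did not overlap, at 0.68 ± 0.24 (SE, limma, n = 3 each, adjusted p = 0.0855). The retinoic acid breakdown gene cyp26c1 (LOC100705715) overlapped, at -0.75 ± 0.34 (SE). The brain aromatase gene cyp19a1b (LOC100534396), which makes estrogen, was at 1.04 ± 0.41, pgr at 1.204 ± 0.402 and hsd3b1 (LOC100534568) at 0.50 ± 0.25 (SE). The cholesterol exporter gene abca1b (LOC100699821) was at -0.58 ± 0.17 (SE). DESeq2, which called 25.8% of the table, called cyp19a1b, abca1b and pgr (adjusted p = 0.0491, 0.0333 and 0.0289).

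The 5 receptor-associated proteins all had a negative difference in the brain, and with the posterior hox level as a covariate 2 of 5 did. The gene thrap3, for a protein of the splicing and transcription machinery, had 2031, 2031 and 2083 normalised reads in dominant brains, against 2182, 2174 and 2095 in subordinate brains. The groups did not overlap, at -0.07 ± 0.05 (SE, limma, n = 3 each, adjusted p = 0.934). The coactivator genes ppargc1a and ppargc1b, which raise mitochondrial genes, averaged 1206 ± 234 and 1595 ± 136 in dominant brains, against 1337 ± 234 and 1723 ± 183 in subordinate brains (SD, n = 3). The genes thrap3a (LOC102077285) and nr2c2ap were at -0.14 ± 0.21 and -0.09 ± 0.18 (SE).

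Among the wider set of coactivators, which open chromatin for the bound receptor, 4 of 22 genes had a positive and 18 a negative difference. Over all 21743 genes tested 10615 were positive. The median of the 22 coactivators was -0.04, and 8 of 22 were positive with the posterior hox level as a covariate. None of the 22 passed limma at an adjusted or unadjusted p under 0.05, against 0.0276% and 5.17% of all genes tested. The lowest p belonged to ncoa5 at -0.09 ± 0.06 (SE). Corepressors, which hold target genes silent, split into 6 positive and 8 negative of 14, or 9 positive and 5 negative with the hox covariate, again with none at an unadjusted p under 0.05. The corepressor gene rcor2 had 513, 575 and 692 normalised reads in dominant brains, against 690, 705 and 715 in subordinate brains, at -0.26 ± 0.11 (SE). Its relative rcor1 had 1117, 1104 and 1123 in dominant brains, against 1260, 1157 and 1148 in subordinate brains, without overlap, at -0.09 ± 0.06 (SE, adjusted p = 0.934).

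Chaperones fold steroid receptors and hold them ready for their hormone. Of 10 such genes 8 had a positive and 2 a negative difference, beside 10615 positive of all 21743 genes tested. Their median was 0.03, and 0 of 10 were called. The gene hspa8b (LOC100696748), for a heat shock cognate protein, had 2007, 1904 and 1885 normalised reads in dominant brains, against 1591, 1600 and 1078 in subordinate brains. The groups did not overlap, at 0.46 ± 0.15 (SE, limma, n = 3 each, unadjusted p = 0.0202, adjusted p = 0.934). The gene fkbp5 (LOC100711482), a chaperone that glucocorticoids induce in mammals, had 640, 1549 and 3450 in dominant brains, against 552, 6392 and 4212 in subordinate brains. Fish of the same status thus differed several-fold in fkbp5, and its difference was -0.71 ± 0.99 (SE). The gene nr3c1 lay between 316 and 433, and LOC100534398 between 1200 and 1322. Subordinate brain 1 and dominant brain 1 were lowest in both fkbp5 and nr3c1. The more abundant locus LOC100534398 did not share this order. It was lowest in dominant brain 2 at 1200, with 1300 in dominant brain 1 and 1290 in subordinate brain 1. A relation between these genes was not tested.

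Of 15 genes of steroid and oxysterol metabolism 5 had a positive and 10 a negative difference, with a median of -0.09. In limma 0 of 15 had an unadjusted p under 0.05, against 5.17% of all genes tested. The gene hsd3b1 had 133, 333 and 215 normalised reads in dominant brains, against 247, 359 and 477 in subordinate brains, at -0.72 ± 0.37 (SE). Brain aromatase cyp19a1b had 3221, 4253 and 3117 in dominant brains, against 1770, 3650 and 2548 in subordinate brains, at 0.46 ± 0.26 (SE). Both overlapped between the groups. Among 31 genes known as targets of these receptors, 14 had a positive and 17 a negative difference. Their median of -0.01 became 0.15 with the posterior hox level as a covariate. In limma 0 of 31 had an unadjusted p under 0.05, against 5.17% of all genes tested. The lowest p belonged to lpcat3, an LXR target in mammals, at -0.25 ± 0.11 (SE).

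**Figure D4:**
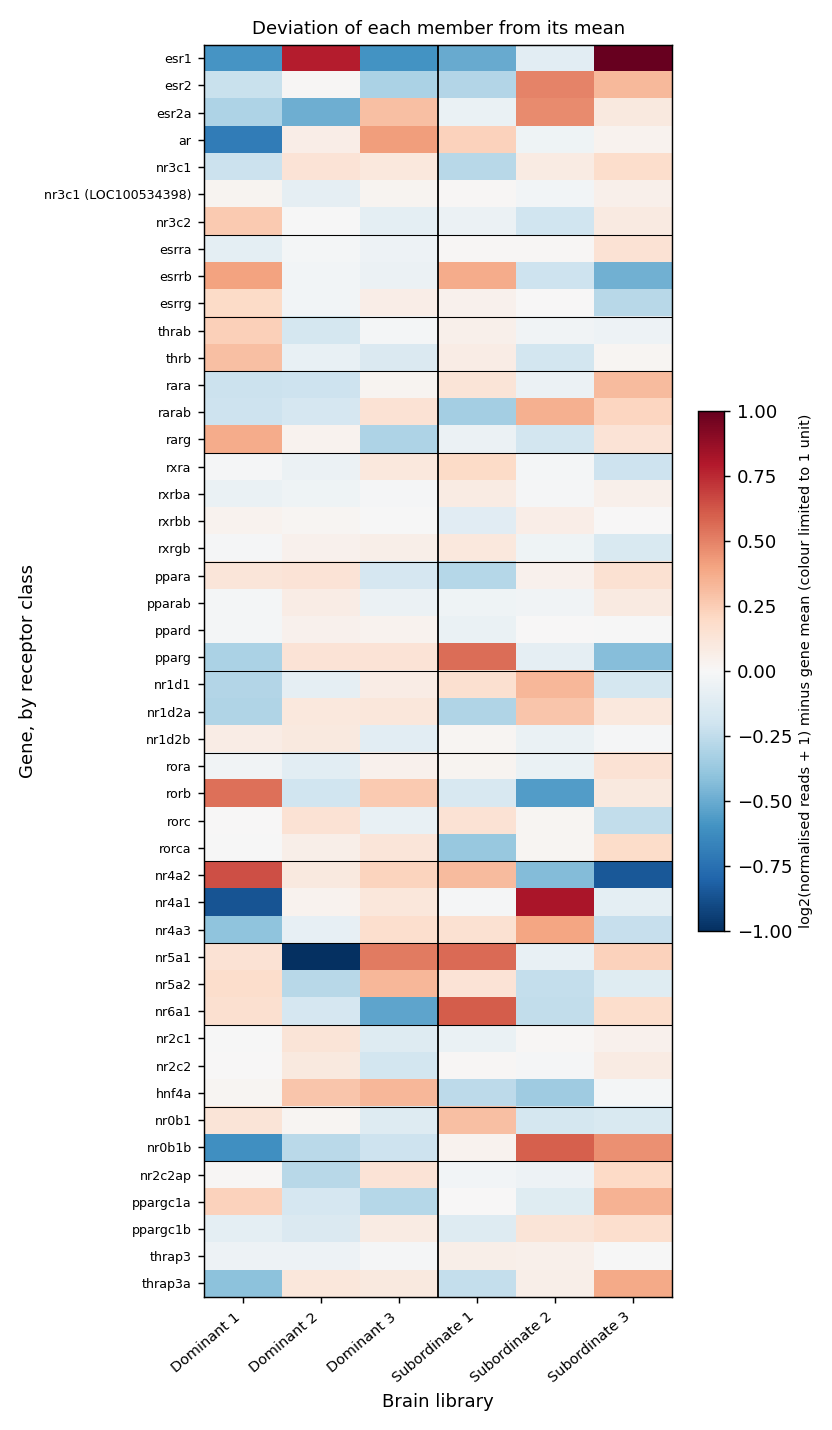
Level of each of the 46 genes in each brain as its deviation from the gene's own mean (colour, log2 units, limited to 1), with dominant brains left of the line and subordinate brains right of it, and classes separated by horizontal lines. The strongest colours sit in single brains, such as esr1 in dominant brain 2 and subordinate brain 3 and nr5a1 in dominant brain 2, and not in whole groups.

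The receptor genes differed widely in how tightly brains of the same status resembled each other. Their residual SD within status groups ran from 0.027 log2 units for thrap3 to 0.79 for esr1. Over the brains of both statuses together, the highest brain exceeded the lowest by less than 1.2-fold for 11 of 46 genes. It did so by less than 1.5-fold for 26 and by more than 2-fold for 8. This fold range also holds any difference between the groups. The median residual SD within status groups was 0.206 log2 units for the 46 genes and 0.171 for all genes tested. After esr1, the widest spread was in nr5a1 at 0.75 and nr4a1 at 0.52 log2 units. Subordinate brain 3, which also had the highest pituitary hormone sum, held the highest value for 13 of the 46 genes, while 16.7% of all genes were highest there.

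**Figure D5:**
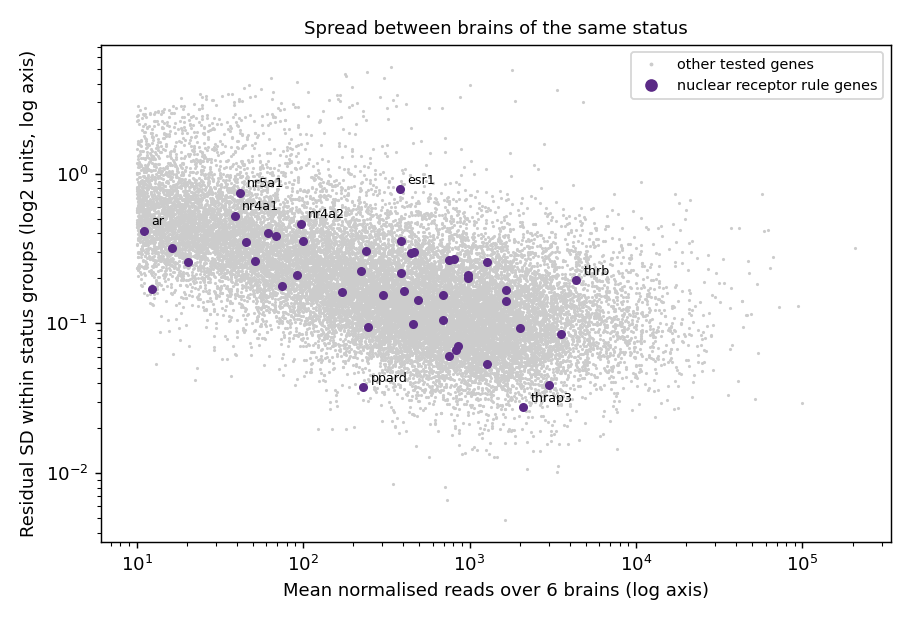
Residual SD within status groups (vertical log axis, log2 units) against the mean level over 6 brains (horizontal log axis), for the 46 genes (purple) and all other tested genes (grey). The gene esr1 stands at the top of the purple points with 0.79 at a mean of 380 normalised reads.

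Duplicated or paired genes were compared within each brain as the log2 ratio of one member to the other, with 1 normalised read added to each. Library scaling cancels in this ratio except for the added read, which matters most for low genes such as esr2 and nr0b1b. For all 9 pairs the groups overlapped, and the adjusted p over the 9 pairs was 1 for each (exact permutation test, two-sided), where 3 against 3 brains cannot give a p under 0.1. The ratio of rxrbb to rxrba was -1.79 ± 0.05 in dominant and -1.90 ± 0.14 in subordinate brains (SD, n = 3). That of nr3c1 to LOC100534398 was -1.71 ± 0.24 in dominant and -1.75 ± 0.24 in subordinate brains. Reads of near-identical copies may be shared between them, and ratios compare no expression levels because transcript lengths differ.

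Genes next to the minimum level were ar at a mean of 11.1 and hnf4a at 12.4 normalised reads just inside it, and nr5a5 (LOC100696603) at 7.33 and hnf4g (LOC100690728) at 7.26 just outside it. A further 12 nuclear receptor genes carry names that the rule did not take, among them the LXR gene nr1h3, the COUP-TF genes nr2f1 and nr2f2, the second androgen receptor gene ara and pgr. None of the 12 was called in the brain by limma, which called 0.0276% of all genes tested. Of these, 7 had a positive and 5 a negative difference. The androgen receptor gene ara averaged 66.7 ± 17.7 normalised reads in dominant and 65.7 ± 6.39 in subordinate brains, at -0.01 ± 0.22 (SD and SE, n = 3). The gene nr2e3 (LOC100705476), a photoreceptor factor in mammals, had 10.4, 7.53 and 6.28 in dominant brains, against 12.7, 11.4 and 12.1 in subordinate brains, without overlap, at -0.55 ± 0.37 (SE).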

How the data were processed

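Brain and pituitary RNA of male Nile tilapia was sequenced by the authors from TruSeq RNA v2 libraries, per the labels' protocols. Per the submitters' processing notes, reads were checked, trimmed, aligned, counted or compared with tools that include STAR 2.201, HTSeq, FastQC 0.11.4, Trim Galore, DESeq and DESeq2. The sources used here give no genome build, annotation, strand setting or rule for multi-mapped reads. The deposited signal values are normalised read counts, inferred to be gene counts divided by a size factor because 100% of values were whole multiples of 1 step per library (tolerance 0.01 reads). Whole counts were recovered from the values that the authors deposited. The log2 fold changes and unadjusted p-values that the authors deposited compare dominant with subordinate fish.

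LOC identifiers were named from a RefSeq table (assembly O_niloticus_UMD_NMBU), which holds 17128 of 17130 of them and a symbol for 5834. Both tissues were tested separately with limma 3.58.1 (R 4.3.3) on log2(value + 1), eBayes with trend=TRUE, over all genes with a mean of at least 10, Benjamini-Hochberg adjusted, two-sided. This scale understates changes of low genes. All values are from these fits unless the authors' table is named. The brain depth of 23733115 to 26867631 reads leaves genes near 10 reads imprecise; the 714 pituitary genes do not give that tissue's depth. No positions or sequences are printed. The number of unused value columns was 0.

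The members, lists and named genes were chosen with earlier results of these data known. Per-sample values are given for those of the 46 genes with an unadjusted p under 0.05 or groups that do not overlap, all steroid, thyroid hormone, retinoic acid and NR4A receptors and pituitary members. Of each pathway list genes among the 4 with the smallest p are named, including each of those whose groups do not overlap or whose unadjusted p is under 0.05. A gene that this rule would name is not reported here. Values of nr1d1, rorb, nr5a1 and nr0b1 were added after they were seen, as were those of pathway genes in the pituitary table and the values of ara.

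Alternatives were pseudocounts of 0.5 and 5, a minimum mean of 50 or none, quantile and TMM rescaling, robust limma, the replicate number as a block, each library left out, a posterior hox covariate, and count tests of recovered reads with DESeq2 1.42.0 and edgeR 4.0.16 (quasi-likelihood). Figures used matplotlib 3.10.9, exact tests scipy 1.17.1.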

Additional observations from a re-analysis of the deposited data

How the results depend on the processing

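In the brain no nuclear receptor gene was called under any of the 17 alternatives in which it was tested. The median difference of these genes ran within 0.1 log2 units of 0. The minimum mean of 50 left ar, esr2, esr2a, hnf4a, nr0b1b, nr4a1 and nr5a1 untested. The count at an unadjusted p under 0.05, 1 as reported, was 0 with DESeq2, 3 with the hox covariate and 3 with the replicate block. On leaving out a library it was 0 to 3. With a minimum mean of 50 the count was also 0, but that minimum removes nr0b1b, the gene counted, before the test. Over all brain genes 6 were called, against 84 with DESeq2, 0 with the hox covariate, 1 with the replicate block and 1 to 15 without a library; 15 was reached without subordinate 1. Over the 714 pituitary genes, which were selected by the same contrast, 6 were called, against 184 with DESeq2. Without a library 0 to 255 were called, 0 without dominant 3 and 255 without subordinate 1. The gene hnf4a was called (1 of 1) only with DESeq2 and without subordinate 1. Deviations of same-numbered fish correlated at 0.09, -0.03 and -0.02 in the brain and 0.15, 0.08 and -0.05 in the pituitary. With 3 fish per group these values cannot settle whether the replicate numbers pair the samples. In limma with the replicate block hnf4a had an adjusted p of 0.109. The causes were not tested.

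The sign of the brain difference, which no test called, held under all alternatives for 15 of 46 genes and turned for 31 under at least 1. Of 775 alternative values 60 had the other sign. TMM gave 0.0033 for pparab, and quantile rescaling gave 0.00084 for pparab and -0.047 for nr0b1. The hox covariate, whose groups do not overlap in level, gave 0.13 for esr1, 0.30 for esr2, 0.22 for esr2a, -0.40 for esrrb, -0.028 for thrab, -0.14 for thrb, 0.53 for rarab, -0.011 for rarg, -0.20 for rxra, -0.11 for rxrgb, 0.0084 for pparab, 0.45 for nr1d2a, -0.062 for nr1d2b, -0.18 for rorc, -0.14 for nr4a2, 0.066 for nr4a1, -0.062 for nr5a2, -0.45 for nr0b1, 0.035 for nr2c2ap, 0.18 for ppargc1b and 0.21 for thrap3a.

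Leaving out 1 library in turn gave ranges that span 0 for 22 genes: -0.046 to 0.011 for LOC100534398, -0.39 to 0.17 for ar, -0.73 to 0.17 for esr1, -0.065 to 0.17 for nr0b1, -0.22 to 0.085 for nr1d2a, -0.063 to 0.066 for nr2c1, -0.12 to 0.022 for nr2c2, -0.18 to 0.030 for nr2c2ap, -0.12 to 0.13 for nr3c1, -0.86 to 0.090 for nr5a1, -0.064 to 0.16 for ppara, -0.041 to 0.038 for pparab, -0.25 to 0.24 for pparg, -0.10 to 0.24 for rarg, -0.060 to 0.14 for rorc, -0.043 to 0.24 for rorca, -0.075 to 0.13 for rxra, -0.016 to 0.074 for rxrbb, -0.00048 to 0.13 for rxrgb, -0.089 to 0.12 for thrab, -0.29 to 0.034 for thrap3a and -0.078 to 0.14 for thrb. Genes near 10 reads, such as ar, esr2, hnf4a and nr0b1b, are limited by counting error.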
